A study of Mus musculus with 18 samples.

Results

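The 10 genes of cholesterol efflux and of the liver X receptor (LXR) pathway followed here across all 5 groups of an array study of mouse bone marrow derived macrophages were Abca1, Abcg1, Nr1h2, Nr1h3, Mylip, Apoe, Apoc1, Srebf1, Lpcat3 and Lipg. The genes were taken by symbol, and the log2 ratios of all probes of a gene were averaged. Of the 10 genes 9 had a named probe, out of 22485 genes with one, and these 9 were covered by 20 of 33026 named probes. Nr1h2, which encodes LXR beta, had none and was not analysed here. Apoe had 10 probes, Nr1h3 and Mylip had 2 each, and the other genes had 1 each. In RefSeq on GRCm38.p6 the genes that the results turn on lie at chr4:53030789-53159988 (Abca1), chr17:31057694-31117984 (Abcg1), chr2:91184061-91202829 (Nr1h3), chr13:45389742-45411940 (Mylip) and chr11:60199084-60224186 (Srebf1); where in a transcript each probe lies is not given in the files used here.

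Each of the 18 arrays held 1 sample of macrophages (Cy5) against RNA of untreated macrophages (Cy3), so a value of 0 means the level of the untreated reference and a value of 1 means a 2-fold higher level. Wild-type cells (Nrf2+/+) were given albumin for 4 h (n = 3), LPS for 4 h (n = 3), or 200 µM heme with albumin for 4 h followed by LPS for 4 h (n = 3). Cells without Nrf2 (Nrf2-/-) were given LPS (n = 4) or heme with albumin followed by LPS (n = 5). All cells came from marrow of mice 8 to 10 weeks old, cultured for 7 days with M-CSF at 10 ng/ml, and LPS, the bacterial cell wall product that activates TLR4, was used at 10 ng/ml. The knockout has no group without LPS. The treatment protocol puts heme with albumin, or albumin alone, before LPS, but the descriptions of the arrays given only LPS mention no albumin. If those cells had no albumin first, a longer time in treatment cannot be told apart from heme itself. The design text calls the replicates independent and biological, and each is named by the letter in its title.

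LXR alpha (Nr1h3) and LXR beta (Nr1h2) are nuclear receptors that sense oxysterols, pair with RXR, and switch on genes that move cholesterol out of the macrophage. ABCA1 passes cholesterol to lipid-poor apolipoprotein A-I and ABCG1 passes it to HDL, while apolipoprotein E and apolipoprotein C-I ride on the resulting particles. MYLIP (IDOL) is a ubiquitin ligase that sends the LDL receptor to degradation, SREBP1 (Srebf1) drives fatty acid synthesis, LPCAT3 puts polyunsaturated fatty acids into phospholipids, and endothelial lipase (Lipg) cleaves the phospholipids of HDL. Heme from red cells taken up by macrophages activates NRF2, the product of Nfe2l2, which raises antioxidant and heme-degrading genes.

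The promoter stretches of Abca1 and Srebf1 are shown because they were the only ones among the 7 genes searched with a match to an LXR-type direct repeat. RefSeq windows on GRCm38.p6, from 250 bases before to 50 bases after each start, were held for 7 of the 10 genes (12 windows). Abcg1, Apoc1 and Lipg had no window and were not searched. The motif was GGTNA, any 5 bases and GGTCA, where N is any base, searched on both strands. In the lines below the match is in capitals and lies on the strand opposite to the gene, where it reads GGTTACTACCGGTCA for Abca1 and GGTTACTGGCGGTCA for Srebf1.
Abca1, chr4:53159908-53160002, minus strand, match at -67 to -53 from the start: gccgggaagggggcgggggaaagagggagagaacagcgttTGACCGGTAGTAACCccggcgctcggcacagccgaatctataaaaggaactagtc
Srebf1, chr11:60210599-60210693, minus strand, match at -182 to -168 from the start: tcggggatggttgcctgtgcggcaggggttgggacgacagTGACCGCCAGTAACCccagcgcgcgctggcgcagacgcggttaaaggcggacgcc
Over all RefSeq windows 68 of 32851 (0.207%) held this motif. The half-site AGGTCA was in 16.3% of all windows, an exact repeat of it with 4 bases between in 0.0152%, and the NRF2 core TGACNNNGC in 12.4%, all on either strand. None of these 3 was found in the 12 windows of the genes followed. Srebf1 had 3 windows, and its match lay in the one at chr11:60210422-60210721. That start lies inside the gene, whose span on the minus strand begins at 60224186. The Abca1 match, at chr4:53159948-53159962, also lies inside the span of its gene, which begins on the minus strand at 53159988. A match is a stretch of letters and was not tested as a binding site.

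The labels were set against known genes first. All 9 knockout arrays listed Nfe2l2 at exactly 0. So did 2 of the 3 wild-type albumin arrays (b and c), so a 0 alone does not mark a knockout array. No wild-type array given LPS, with or without heme, listed it at 0. The check gene Nqo1 rose with heme by 3.42 log2 units (SE 0.32, adjusted p = 6.04e-06) in wild type. In the knockout its difference was 0.75 (SE 0.26, adjusted p = 0.12). Under heme and LPS its knockout minus wild type difference was -2.72 (SE 0.29, adjusted p = 5.6e-05). For both genes the genotypes did not overlap under heme and LPS, but they did under LPS alone. With heme the heme oxygenase gene Hmox1 was higher than under LPS alone by 4.91 log2 units (SE 0.34, adjusted p = 6.4e-07) in wild type and by 4.01 (SE 0.28, adjusted p = 3.4e-06) in the knockout, and Tnf rose by 4.74 (SE 0.21, adjusted p = 7.6e-09) with LPS. Under heme and LPS Hmox1 was lower in the knockout than in wild type by 1.60 (SE 0.31, adjusted p = 0.0059), without overlap. That call was lost with only the compared groups in the fit (adjusted p = 0.155). Adjusted p-values are from limma with Benjamini-Hochberg adjustment over all 22485 genes, with 0.05 as the limit for a call. The share of features listed at exactly 0 ranged from 17.9% to 48.8% over the arrays, and was 44.3% to 48.8% on the 4 LPS-treated arrays lettered a.

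Of 8 macrophage markers, all measured, 2 fell with heme in wild type (Fcgr3 by 1.68 and Mrc1 by 1.21 log2 units) and 0 in the knockout. Over all genes 6.35% and 2.67% were called lower. The mean log2 ratio of the 8 ranged from -0.46 to -0.45 over the albumin arrays, 0.11 to 0.37 over wild-type LPS, -0.72 to 0.12 over wild-type heme and LPS, 0.037 to 0.34 over knockout LPS and -0.17 to 0.49 over knockout heme and LPS. Of 8 neutrophil markers, all were measured and none was listed at 0 throughout a group. S100a8 (2.05) and Elane (1.08) were higher with heme in wild type and Elane (0.98) in the knockout, beside 8.34% and 4.1% of all genes. The mean of the 8 ranged from -0.082 to 0.14 under albumin, 0.16 to 0.85 and 0.68 to 1.38 in wild type without and with heme, and 0.14 to 0.70 and 0.49 to 1.18 in the knockout. Of the B cell, T and NK cell, erythroid, stromal and dendritic cell markers measured, 1 stromal gene was called lower with heme in wild type. The knockout had 0 calls with heme among them. The part of these markers in the results that follow was not tested, and in bulk RNA fewer cells of a type cannot be told apart from less RNA per cell.

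The efflux transporter genes Abca1 and Abcg1 were lower with heme before LPS than with LPS in both genotypes, and the receptor gene Nr1h3 was called lower in wild type. The Abca1 calls were not firm. They were lost with only the compared groups in the fit (adjusted p = 0.261 in wild type and 0.0746 in the knockout) and without certain single arrays, named below. A difference between the genotypes in the heme response was called for Nr1h3, Mylip and Lipg, but no such call was firm: 0 of the 3 passed with only the compared groups in the fit, 1 with the replicate letter as a block and 0 to 3 without single arrays. The Lipg values in wild-type heme are listed at exactly 0 and may not be estimates. In wild type 4 of the 9 measured genes (Abcg1, Lipg, Nr1h3 and Abca1) were lower and 0 higher under heme and LPS than under LPS, where 6.35% of all genes were called lower and 8.34% higher. In the knockout 3 of 9 (Abcg1, Abca1 and Mylip) were lower and 0 higher, against 2.67% of all genes called lower and 4.1% higher. At an unadjusted p under 0.05, the limma fit had 6 of the 9 genes in wild type and 3 in the knockout, in either direction, beside 5237 and 3889 of all 22485 genes. The median difference over the 9 genes was -0.76 in wild type and -0.27 in the knockout, and the median over all genes was 0 in both.

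Under LPS alone Lipg was higher and Srebf1 lower than under albumin, 1 of 9 in each direction, beside 12.3% of all genes called higher and 16.3% called lower, so the count was near that over all genes. It was 5 rather than 2 with only the compared groups in the fit, and 4 after quantile normalization or with array weights. Heme and LPS against albumin had 1 gene higher (Mylip) and 4 lower (Abcg1, Abca1, Nr1h3 and Srebf1), beside 12.9% and 14.4% of all genes. Under LPS 0 of the 9 genes differed between knockout and wild type in the limma fit, and 0 had an unadjusted p under 0.05; the shares of all genes called were 0% higher and 0.00445% lower, which is 1 gene, while 557 genes had an unadjusted p under 0.05. With heme and LPS 3 genes were higher in the knockout (Nr1h3, Abcg1 and Lipg) and 1 lower (Mylip), beside 2.13% of all genes called higher and 3.16% lower. The interaction, which subtracts the heme difference of wild type from that of the knockout, was called positive for Nr1h3 and Lipg and negative for Mylip, beside 0.24% and 0.707% of all genes. Comparisons that use the same arrays are not independent of each other.

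**Figure D1:**
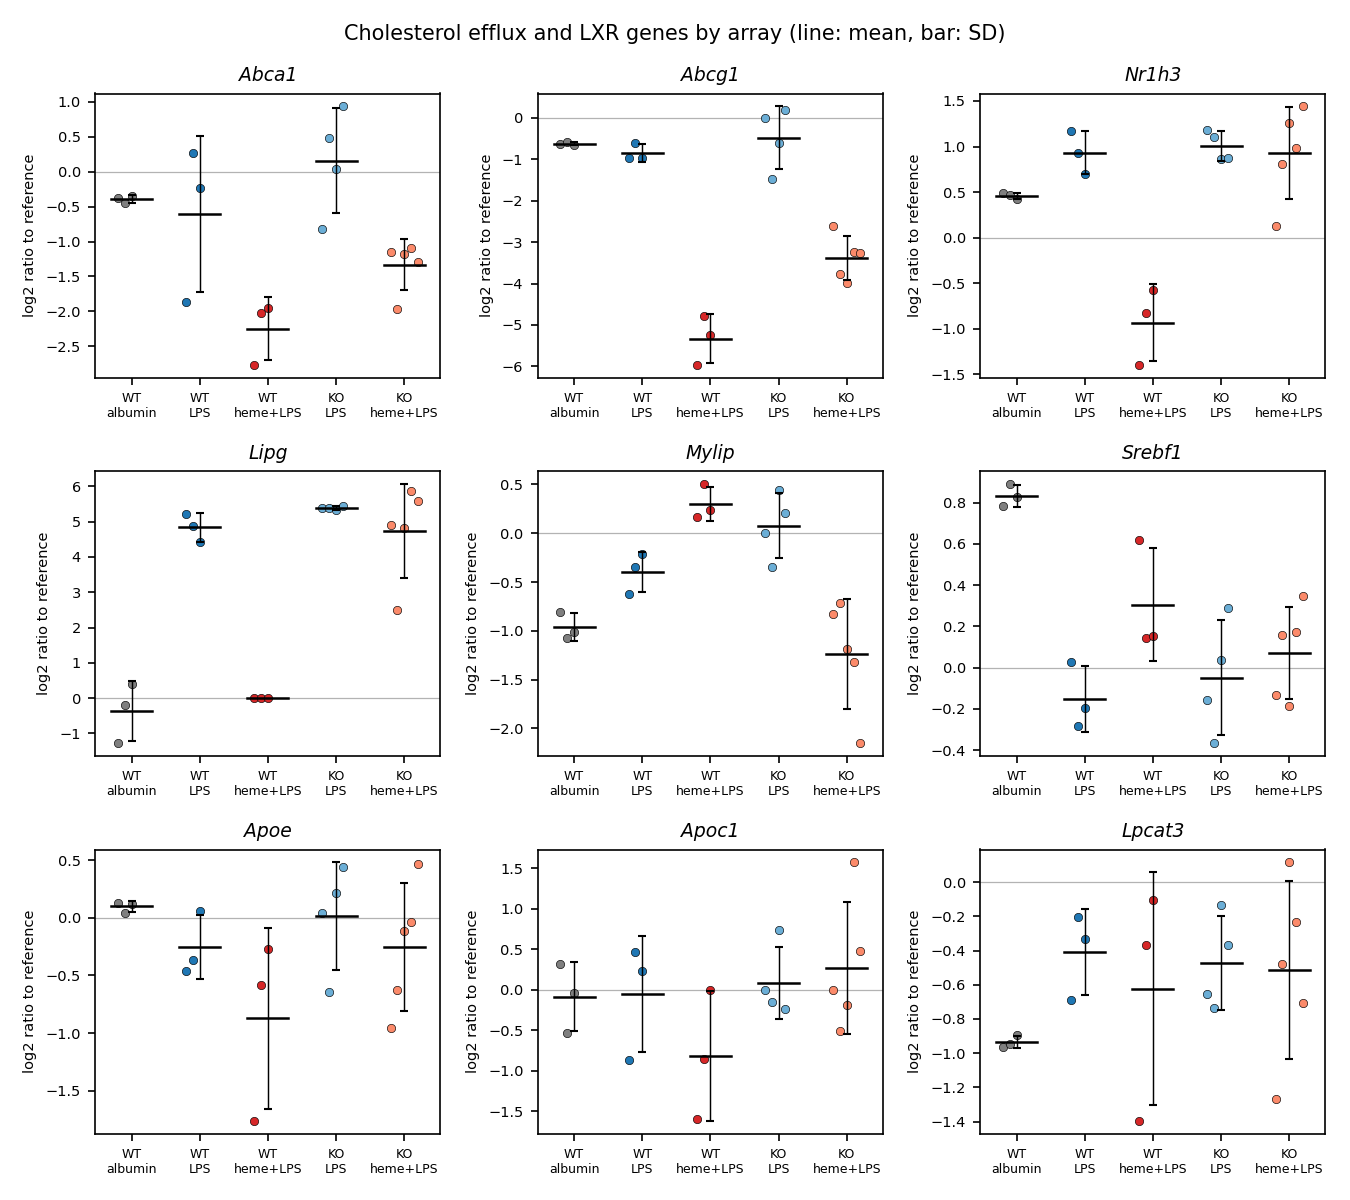
Log2 ratio to the untreated reference (vertical axis) of the 9 measured genes on each array, by group (horizontal axis; WT is Nrf2+/+, KO is Nrf2-/-). Points are arrays, lines are means and bars are SD; Abcg1 under heme sits below every other group in both genotypes, and Lipg is listed at exactly 0 on the 3 wild-type heme arrays.

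Abcg1 had the lowest values of all genes followed. Under heme and LPS its log2 ratios in wild type were -5.96, -4.77 and -5.25 (arrays a, b and c), against -0.97, -0.61 and -0.97 under LPS and -0.64, -0.58 and -0.65 under albumin. The heme arrays lay far below both other groups, whose own ranges met. Against LPS it fell by 4.48 log2 units, 22.3-fold (SE 0.42, adjusted p = 5.8e-06), and against albumin it fell by 4.71 units, 26.1-fold (SE 0.42, adjusted p = 2.1e-06). LPS alone gave a difference of -0.23 (SE 0.42, adjusted p = 0.77), with overlapping arrays.

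In the knockout Abcg1 was at -0.01, -1.48, -0.62 and 0.20 under LPS and at -2.62, -3.78, -3.99, -3.25 and -3.27 under heme and LPS. The groups did not overlap, and the 4 pairs of same-lettered arrays were all lower with heme, by 2.30 to 3.44. It fell by 2.90 log2 units, 7.49-fold (SE 0.34, adjusted p = 0.00018). The knockout under heme and LPS was 1.95 units (3.85-fold) above wild type (SE 0.37, adjusted p = 0.0060), again with no overlap. That last call was lost after quantile normalization between arrays (adjusted p = 0.0658), with only the compared groups in the fit (0.0764) and with the LPS-treated arrays of letter a left out (0.0602). The interaction of 1.57 (SE 0.54, 95% interval 0.42 to 2.73, adjusted p = 0.31) did not pass, so the heme responses of the genotypes were not shown to differ. Ordered by mean, Abcg1 was -0.48 ± 0.75 (SD) in knockout LPS, -0.62 ± 0.039 under albumin, -0.85 ± 0.21 in wild-type LPS, -3.38 ± 0.53 in knockout heme and -5.33 ± 0.60 in wild-type heme, where the first 3 neighbours overlap.

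Abca1 was also lower under heme in both genotypes. In wild type it was at -0.37, -0.45 and -0.35 under albumin, -1.86, 0.27 and -0.24 under LPS, and -2.77, -2.03 and -1.96 under heme and LPS. Array a of the LPS group stood near the heme arrays, yet the groups did not overlap. The difference from LPS was -1.64 (SE 0.49, 3.12-fold, adjusted p = 0.036) and that from albumin was -1.86 (SE 0.49, 3.63-fold, adjusted p = 0.011). The call against LPS was lost without any 1 of 7 arrays (wild-type heme a, b or c, LPS b or c, albumin a or c), with adjusted p up to 0.173 and differences from -2.27 to -1.20 over all arrays left out singly, and with only the compared groups in the fit (0.261).

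In the knockout Abca1 was at -0.82, 0.48, 0.04 and 0.93 under LPS and at -1.14, -1.97, -1.17, -1.09 and -1.29 under heme and LPS. All heme arrays were below all LPS arrays, and the same-lettered pairs differed by -0.32 to -2.44. The difference was -1.49 (SE 0.40, 2.81-fold, adjusted p = 0.040). It lost its call without any 1 of 13 arrays, namely all 5 knockout heme arrays, knockout LPS b, c or d, wild-type heme b or c, or albumin a, b or c (adjusted p up to 0.138), after quantile normalization (0.0579) and with only the compared groups in the fit (0.0746). The interaction was 0.15 (SE 0.64, 95% interval -1.21 to 1.51, adjusted p = 1), an interval that holds differences in both directions. Under heme and LPS the knockout minus wild type difference was 0.92 (SE 0.44, adjusted p = 0.33).

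**Figure D2:**
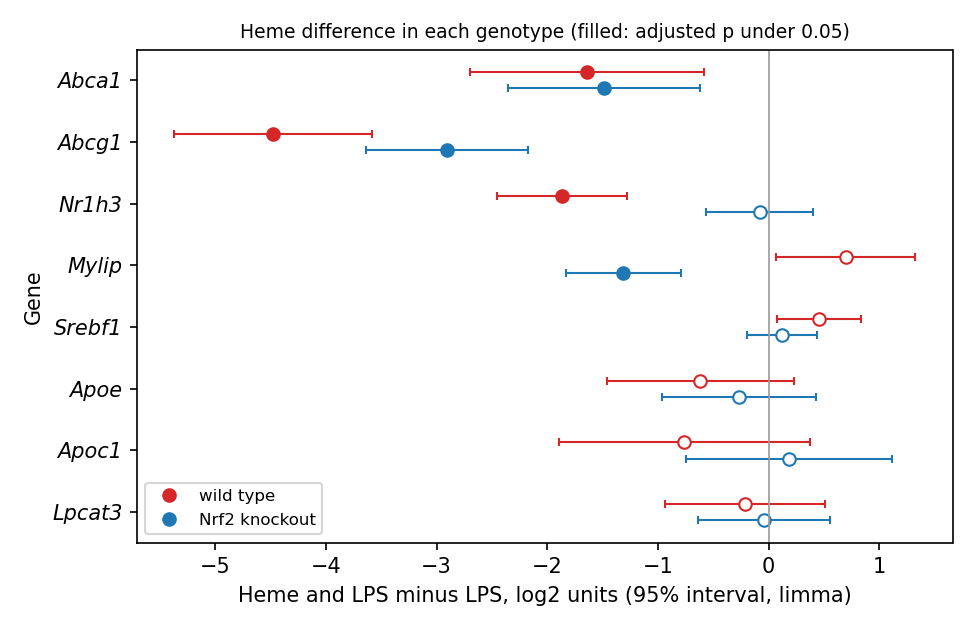
Heme and LPS minus LPS in log2 units (horizontal axis) for 8 genes (vertical axis), in wild type (red) and Nrf2 knockout (blue), with 95% intervals from limma; filled points passed at an adjusted p under 0.05. Abca1 and Abcg1 are filled in both genotypes, Nr1h3 in wild type and Mylip in the knockout; Lipg is left out because its wild-type heme arrays are listed at exactly 0.

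Nr1h3, the gene of LXR alpha, was lower with heme in wild type and was not called in the knockout. Its wild-type values were 0.49, 0.47 and 0.42 under albumin, 1.17, 0.93 and 0.70 under LPS, and -1.40, -0.83 and -0.57 under heme and LPS. The heme arrays were the only ones below the reference level, with no overlap with either other group. It fell by 1.87 log2 units against LPS (SE 0.27, 3.65-fold, adjusted p = 0.0003) and fell by 1.39 against albumin (SE 0.27, 2.62-fold, adjusted p = 0.0016). Both Nr1h3 probes showed it, with differences from LPS of -1.93 and -1.80, and they never lay further than 0.28 apart on an array.

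In the knockout Nr1h3 was at 1.18, 1.1, 0.86 and 0.88 under LPS and at 0.13, 0.81, 1.26, 0.98 and 1.44 under heme and LPS. The ranges overlapped, with array a of the heme group the lowest. The difference was -0.08 (SE 0.23, 95% interval -0.57 to 0.40, adjusted p = 0.96). Under heme and LPS the knockout was above wild type by 1.86 units, 3.62-fold (SE 0.25, adjusted p = 0.00036; 0.0579 with only the compared groups in the fit), and every knockout array was above every wild-type array. The interaction was 1.78 (SE 0.36, adjusted p = 0.027). With the replicate letter as a block its adjusted p was 0.0691, with only the compared groups 0.0805, and it also missed the threshold without any 1 of 9 arrays (wild-type heme a or b, wild-type LPS a or b, knockout heme c or d, knockout LPS b, c or d; adjusted p up to 0.0807).

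Lipg, the gene of endothelial lipase, was raised by LPS in wild type, and was listed at 0 in wild type but not in the knockout after heme. In wild type it was at -1.27, -0.20 and 0.40 under albumin and at 5.22, 4.89 and 4.42 under LPS. The rise was 5.20 log2 units, 36.7-fold (SE 0.65, adjusted p = 3.3e-05). On all 3 wild-type heme arrays Lipg was listed at exactly 0, which in these files may be a level equal to the reference or a ratio that was not estimated, so no size is given for that group. limma called it lower than under LPS (adjusted p = 0.00013), a call kept under every alternative that gave a value; with values at exactly 0 taken as missing none could be given.

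In the knockout Lipg was at 5.39, 5.40, 5.32 and 5.44 under LPS and at 4.90, 2.50, 4.81, 5.87 and 5.57 under heme and LPS. No knockout array was near 0, and 1 heme array, b, was lower than the others. The heme difference was -0.66 (SE 0.53, 95% interval -1.80 to 0.48, adjusted p = 0.65). Under heme and LPS the knockout was called above wild type (adjusted p = 0.0002) and the interaction was called too (adjusted p = 0.028). The interaction call was lost with the replicate letter as a block (0.0646), with only the compared groups (0.0543), without the LPS-treated arrays lettered a (0.194), and without any 1 of 10 arrays (wild-type heme b or c, wild-type LPS a or b, knockout heme c or e, any of the 4 knockout LPS arrays; adjusted p up to 0.0796).

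Mylip, whose product removes the LDL receptor, had heme differences of opposite sign in the genotypes, of which the one in the knockout passed. Apoc1 also had opposite signs but passed in neither. The values of Mylip were -0.80, -1.07 and -1.01 under albumin, -0.62, -0.35 and -0.22 in wild-type LPS and 0.16, 0.50 and 0.24 in wild-type heme and LPS. In this mean of both probes the wild-type heme arrays were the highest of the 3 groups, without overlap. The difference from LPS was 0.69 (SE 0.29, adjusted p = 0.16) and did not pass. In the knockout it was at 0.01, -0.35, 0.44 and 0.21 under LPS and at -0.82, -0.71, -1.19, -1.32 and -2.15 under heme and LPS.

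In the mean of both probes, and for the probe at feature 30212, all 5 knockout heme arrays lay below all knockout LPS arrays. For the probe at feature 26684 the groups overlapped, with 0, -0.45, 0, -1.39 and -3.19 under heme and LPS against 0, -0.35, 0.41 and 0.31 under LPS, and 2 of those heme arrays were listed at exactly 0. Averaged over both probes, Mylip fell with heme in the knockout by 1.31 log2 units, 2.49-fold (SE 0.24, adjusted p = 0.0042, or 0.0677 with only the compared groups in the fit). The interaction was -2.01 (SE 0.38, adjusted p = 0.020), and under heme and LPS the knockout was below wild type by 1.54 units, 2.90-fold (SE 0.26, adjusted p = 0.0027; 0.0952 with only the compared groups). The interaction lost its call without any 1 of 4 arrays (wild-type heme b or c, wild-type LPS a or b; adjusted p up to 0.0622), with only the compared groups (0.0593) and with the LPS-treated arrays of letter a left out (0.0825).

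The 2 Mylip probes disagreed under albumin. The probe at feature 26684 was at -2.11 ± 0.27 (SD, n = 3) there and the probe at feature 30212 at 0.19 ± 0.022, and on single arrays they differed by up to 2.46. Between heme and LPS they had the same sign, 0.64 and 0.75 in wild type and -1.1 and -1.53 in the knockout. Against albumin they did not have a common size, since heme and LPS was higher by 2.42 for the first probe and by 0.11 for the second. The call of Mylip as higher under heme and LPS than under albumin (1.26, SE 0.29, adjusted p = 0.0050) therefore rests on 1 probe, and with 1 probe per gene the difference was 0.11 (adjusted p = 0.89).

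**Figure D3:**
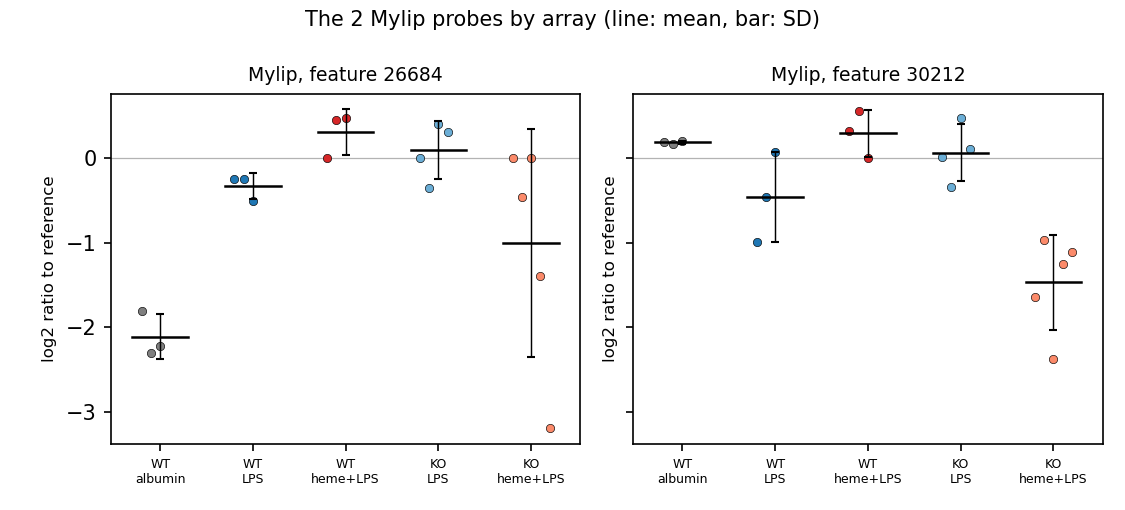
Log2 ratio to the untreated reference (vertical axis) of the 2 Mylip probes on each array, by group (horizontal axis; WT is Nrf2+/+, KO is Nrf2-/-); lines are means and bars are SD. The probes part under albumin (-2.11 against 0.19), and in both the knockout heme group has the lower mean of the knockout groups.

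Srebf1, the gene of the lipogenic factor SREBP1, was lowered by LPS. It was at 0.78, 0.89 and 0.83 under albumin, 0.03, -0.28 and -0.20 in wild-type LPS, and 0.62, 0.14 and 0.15 in wild-type heme and LPS. Every albumin array was above all other wild-type arrays, and the heme arrays were above the LPS arrays. LPS lowered it by 0.98 log2 units, 1.98-fold (SE 0.18, adjusted p = 0.00075). The heme difference from LPS was 0.46 (SE 0.18, adjusted p = 0.12), and heme and LPS was below albumin by 0.53 (SE 0.18, 1.44-fold, adjusted p = 0.040).

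The Srebf1 call against albumin under heme and LPS was the less firm of the pair. It was lost without any 1 of 6 arrays (albumin a, b or c, wild-type heme b or c, wild-type LPS c; adjusted p up to 0.131), with values at exactly 0 taken as missing (0.0598) and with only the compared groups (0.0657). In the knockout Srebf1 was at -0.15, -0.36, 0.03 and 0.29 under LPS and at -0.13, 0.16, -0.19, 0.18 and 0.35 under heme and LPS. The 2 groups overlapped, with a difference of 0.12 (SE 0.15, 95% interval -0.19 to 0.43, adjusted p = 0.80).

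Lpcat3, the phospholipid remodelling enzyme, passed in none of the 7 comparisons. It was at -0.96, -0.95 and -0.89 under albumin, at -0.69, -0.21 and -0.33 in wild-type LPS and at -1.40, -0.37 and -0.11 in wild-type heme and LPS. The heme arrays spanned both other groups, with array a the lowest. The knockout values were -0.66, -0.74, -0.13 and -0.36 under LPS and -1.27, -0.48, 0.12, -0.24 and -0.71 under heme and LPS. The heme differences were -0.21 (SE 0.34, 95% interval -0.94 to 0.51) in wild type and -0.04 (SE 0.28, 95% interval -0.64 to 0.55) in the knockout.

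The apolipoprotein genes did not pass in any comparison. Apoe was at 0.13, 0.04 and 0.12 under albumin, at -0.46, -0.37 and 0.06 in wild-type LPS and at -1.76, -0.58 and -0.28 in wild-type heme and LPS. The 3 heme arrays were below all albumin arrays but overlapped with LPS. The difference was -0.97 against albumin (SE 0.39, adjusted p = 0.086) and -0.62 against LPS (SE 0.39, 95% interval -1.46 to 0.23, adjusted p = 0.42). In the knockout Apoe was at 0.04, -0.64, 0.22 and 0.44 under LPS and at -0.96, -0.63, -0.11, -0.04 and 0.46 under heme and LPS, a difference of -0.27 (SE 0.32, adjusted p = 0.81). Its 10 probes never lay further than 0.23 apart on an array, so the spread is one between arrays and not between probes.

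Apoc1 lies next to Apoe on chromosome 7 and varied widely within groups. It was at 0.32, -0.53 and -0.03 under albumin, at -0.86, 0.47 and 0.23 in wild-type LPS and at -1.60, -0.85 and 0 in wild-type heme and LPS. In the knockout it was at 0, -0.15, 0.73 and -0.24 under LPS and at 0, -0.51, -0.19, 1.57 and 0.48 under heme and LPS. The groups overlapped in all 6 comparisons between groups, and 3 arrays listed it at exactly 0. The heme difference was -0.76 (SE 0.53, 95% interval -1.90 to 0.37) in wild type and 0.19 (SE 0.43, 95% interval -0.75 to 1.12) in the knockout.

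Of 16 other LXR targets 14 were measured, and with heme against LPS 1 was lower in wild type (Mertk, a receptor for the uptake of dying cells, -3.08, SE 0.80, adjusted p = 0.017) and 0 higher, while in the knockout the limma fit called 0 in either direction. Over all genes the shares were 6.35% lower and 8.34% higher in wild type and 2.67% and 4.1% in the knockout, so the counts of this list were near those of all genes. The Mertk call was lost without wild-type heme a or c or wild-type LPS a (adjusted p up to 0.0689). Under LPS 2 of 14 were higher than under albumin, including Lpl, the lipoprotein lipase gene (0.76, SE 0.18, adjusted p = 0.0063), and 1 lower, beside 12.3% and 16.3% of all genes. The median difference with heme over the 14 was -0.02 in both genotypes, beside 0 over all genes.

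Of 14 partners and coregulators of LXR 12 were measured, and under LPS 5 were lower and 1 higher than under albumin, beside 16.3% and 12.3% of all genes. Rxrb, a partner receptor, fell by 1.59 (SE 0.21, adjusted p = 5.5e-05), and Tbl1x, part of the corepressor complex, rose by 1.82 (SE 0.21, adjusted p = 2.1e-05). With heme against LPS 3 of the 12 were lower and 1 higher in wild type (6.35% and 8.34% of all genes). In the knockout 1 was lower and 2 were higher (2.67% and 4.1%). Each of these heme calls was lost under at least 1 alternative. Ncoa1, a coactivator, was among the lower ones in both, by 0.75 (SE 0.14, adjusted p = 0.0023; 0.0703 with only the compared groups) and by 0.51 (SE 0.12, adjusted p = 0.017; 0.0728 after quantile normalization, 0.0659 with only the compared groups and 0.0505 without knockout LPS d).

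Among 7 oxysterol enzymes, which make or break down the ligands of LXR, Ch25h and Hsd3b7 were called with heme in wild type, 1 lower and 1 higher of 7, beside 6.35% and 8.34% of all genes. Ch25h, which makes 25-hydroxycholesterol, rose by 4.01 log2 units with LPS (SE 0.66, adjusted p = 0.00033). With heme in wild type it was lower by 3.37 (SE 0.66, adjusted p = 0.0025; 0.161 with only the compared groups), with arrays at 2.95, 0.65 and -0.59 against 5.20, 3.82 and 4.10. In the knockout Ch25h was at 2.35 to 3.69 over the 5 heme arrays (median 2.61), all below the 4 LPS arrays at 4.67, 3.93, 4.03 and 3.97, but the difference of -1.37 (SE 0.54, adjusted p = 0.18) did not pass, nor did the interaction of 2.00 (adjusted p = 0.53). Hsd3b7, a bile acid synthesis enzyme that acts on oxysterols, went the other way: LPS lowered it by 1.07 (SE 0.19, adjusted p = 0.00058), and with heme it was higher by 2.26 in wild type (SE 0.19, adjusted p = 2.4e-06) and by 0.99 in the knockout (SE 0.15, adjusted p = 0.0013). Its interaction was -1.27 (SE 0.24, adjusted p = 0.020), a call lost with the replicate block (0.0716), after quantile normalization (0.0530), with only the compared groups (0.0595), without the LPS-treated arrays lettered a (0.124) and without wild-type heme c or wild-type LPS a or b (up to 0.0617). The other 5 enzymes did not pass with heme in either genotype.

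Of 13 measured genes of cholesterol storage, hydrolysis and transport (15 listed), 2 were higher and 2 lower with heme in wild type (8.34% and 6.35% of all genes), and 1 of each in the knockout (4.1% and 2.67%). Abca7, an ABC transporter related to Abca1, was higher by 1.04 in wild type (SE 0.17, adjusted p = 0.00056) and by 0.77 in the knockout (SE 0.14, adjusted p = 0.0033), opposite in direction to Abca1. Stard3, the gene of a cholesterol carrier of late endosomes, was lower in wild type by 1.38 (SE 0.26, adjusted p = 0.0018). Under LPS 3 of the 13 were higher than under albumin and 1 lower (12.3% and 16.3% of all genes), with the largest difference in Stard5, a cytosolic cholesterol carrier (2.65, SE 0.36, adjusted p = 6.8e-05).

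The PPAR receptors, their targets and Atf1, a heme-responsive activator reported upstream of LXR in macrophages, made up a list of 9 genes, all measured. Under LPS 0 of the 9 were higher and 3 lower than under albumin, beside 12.3% and 16.3% of all genes. Among the lower were Atf1 by 0.82 (SE 0.20, adjusted p = 0.0068) and Ppard by 1.43 (SE 0.39, adjusted p = 0.012; 0.0526 with only the compared groups). With heme against LPS 3 were higher and 2 lower in wild type (8.34% and 6.35% of all genes), and 1 was higher in the knockout (4.1%). Ppard, the gene of PPAR delta, rose with heme by 3.49 in wild type (SE 0.39, adjusted p = 2.7e-05) and by 1.40 in the knockout (SE 0.32, adjusted p = 0.016; 0.0561 with the replicate block and 0.0634 with only the compared groups). Cd36, a scavenger receptor for oxidised lipoprotein, was higher in wild type by 1.38 (SE 0.19, adjusted p = 0.00014), with arrays at 0.69 to 0.77 against -0.85 to -0.36. Atf1 was higher in wild type by 1.16 (SE 0.20, adjusted p = 0.0012; 0.0656 with only the compared groups). Under heme and LPS it was 0.34 above albumin (SE 0.20, adjusted p = 0.25), which did not pass. In the knockout its heme difference was 0.58 (SE 0.17, adjusted p = 0.052). Neither that nor its interaction of -0.58 (adjusted p = 0.61) passed. The lower ones with heme in wild type were Ppargc1b, a coactivator of nuclear receptors, by 1.93 (SE 0.47, adjusted p = 0.011; 0.0685 with only the compared groups, 0.0519 without the LPS-treated arrays lettered a and 0.0524 without wild-type heme b) and Fabp5, a fatty acid carrier, by 1.33 (SE 0.41, adjusted p = 0.043; 0.226 with only the compared groups and up to 0.186 without any 1 of 12 arrays). Fabp5 and Atf1 were not among the 3 largest called differences of this list here and were named after their values were seen.

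**Figure D4:**
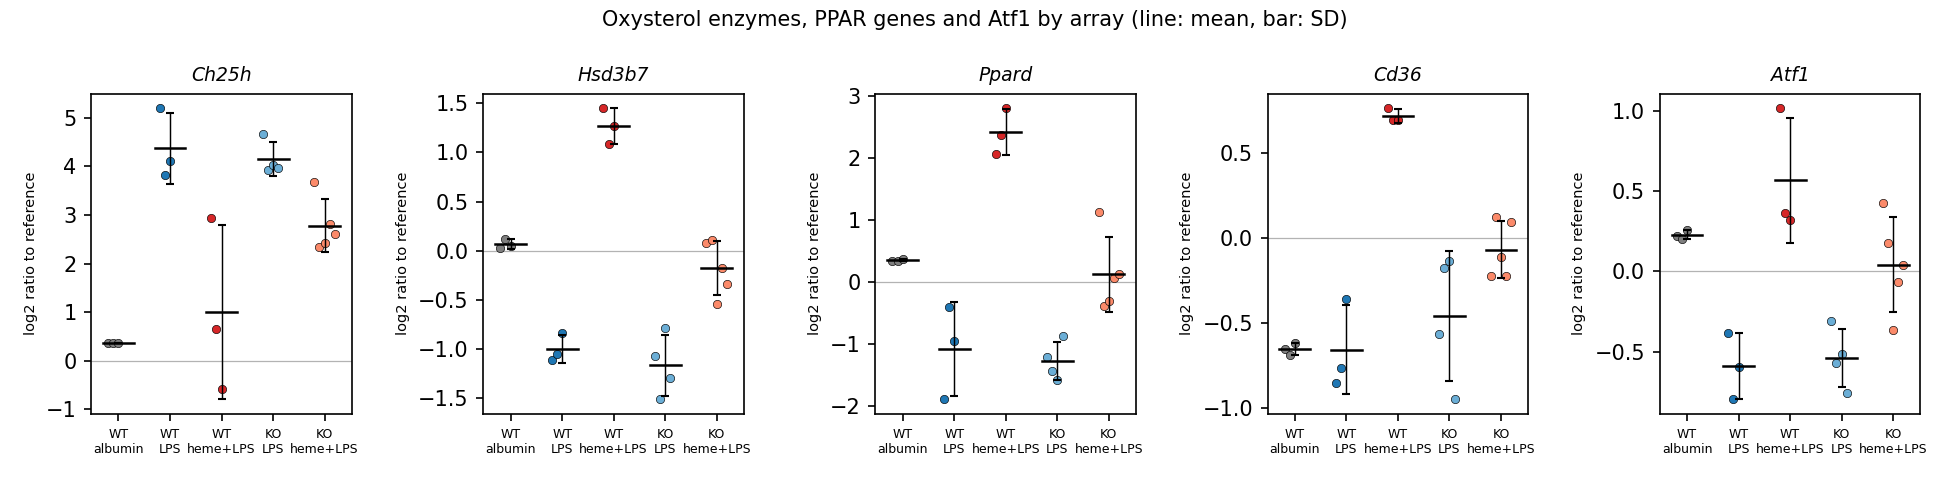
Log2 ratio to the untreated reference (vertical axis) of Ch25h, Hsd3b7, Ppard, Cd36 and Atf1 on each array, by group (horizontal axis; WT is Nrf2+/+, KO is Nrf2-/-); lines are means and bars are SD. Hsd3b7, Ppard and Cd36 have their highest arrays in wild-type heme and LPS, and Ch25h is spread from -0.59 to 2.95 there.

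The genes whose values followed the transporters and Apoe most closely over the 18 arrays were ranked by Pearson correlation among 12509 genes listed at 0 on few arrays. The arrays share their groups and their reference, so the correlations describe these arrays and carry no test. For Abcg1 the closest were Gm6762 (r = 0.96), Gyg (0.96), Rnpep (0.95), Hmox2 (0.95) and Pura (0.94). For Abca1 they were Apba1 (r = 0.90), Stard8 (0.87), Inpp5k (0.86), Abcb1a (0.85) and Mapre2 (0.85). For Apoe they were Cst3 (r = 0.94), H2-DMa (0.93), Apoc2 (0.92), Gm6803 (0.92) and Hsbp1 (0.91), of which Apoc2 belongs to the same chromosome 7 apolipoprotein cluster as Apoe.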

How the data were processed

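The authors deposited 1 log10 ratio per feature and array (sample over reference), made with Agilent Feature Extraction 10.5.1.1 per the submitters' processing notes. The log10 scale was inferred from the range of the values (-2.15 to 3.59), and neither the correction for background and dye nor the reference's genotype is given in the sources used here. Ratios were turned into log2, and the mean over a gene's probes was taken; probes were named through the platform annotation: 33026 of 44397 features had 1 symbol, 11371 had none, and 32438 were matched by gene ID. Group means of all 18 arrays were fitted by lmFit and eBayes of limma 3.58.1 (R 4.3.3), two-sided, tested first on simulated data. The number of arrays and their spread set the precision. The spread was taken as 1 value per gene over all groups and drawn by eBayes toward a value estimated over all genes. Figures used matplotlib 3.10.9. The alternatives were 9 settings and leaving out each of the 18 arrays.

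The genes, lists and rules were chosen with earlier results of these data known. Members were all named, and of each other list up to 3 called genes with the largest difference per comparison could be named. Letters were checked as pairs by correlating deviations from group means: same-lettered arrays correlated above 0.1 in every pair between the knockout groups (0.22 to 0.59) and between genotypes under each treatment (0.20 to 0.58), but not between the wild-type groups (0.012 to 0.48, and about 0 with albumin).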

Additional observations from a re-analysis of the deposited data

Results flagged for a closer look

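Abca1 on array b of the knockout heme and LPS group was at -1.97, far from the other 4 arrays of that group (-1.29 to -1.09), with a gap of 0.775 of the group's range. Of 18 groups of 4 or 5 arrays tested over the 9 genes this was the 1 found, and chance alone gives about 1 in 20.

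The heme difference was called as unequal between the genotypes for 3 genes: Nr1h3 (interaction 1.78), Mylip (-2.01) and Lipg (4.18). The value of Lipg compares with 3 wild-type heme arrays listed at exactly 0, so it is no measured size.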

How the results depend on the processing

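Of 63 differences of the 9 genes 21 were called; 10 of them kept the call under every alternative that gave a value, 11 lost it under at least 1, and 0 changed sign. Of the 42 not called 7 passed under some alternative and 17 changed sign. Among the other pathway genes 84 differences were called, of which 42 kept the call under every alternative. The cause of these changes was not tested. A fit with only the compared groups has fewer arrays and takes a gene's spread from those groups alone. In the main fit all 5 groups share 1 spread per gene, though their own spreads differed. For Abca1 the SD was 0.053 under albumin and 1.11 in wild-type LPS, and for Abcg1 it was 0.039 and 0.21. For Lipg it was 0.85 under albumin and 0.40 in wild-type LPS. Exact zeros, up to 48.8% of the features of an array, limit what low signals can show.

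Fitted with only the compared groups, the genes followed that were called numbered 5 rather than 2 (LPS against albumin), 1 rather than 3 (heme in the knockout), 0 rather than 3 (interaction) and 1 rather than 4 (the genotypes under heme and LPS). Calls over all genes became 1545 rather than 3303 (heme in wild type), 752 rather than 1523 (heme in the knockout), 116 rather than 213 (interaction), 0 rather than 1 (the genotypes under LPS) and 317 rather than 1189 (the genotypes under heme and LPS). Array weights gave 5340 for heme in wild type, 879 for the interaction and 2124 for the genotypes under heme and LPS, and 4 of the genes followed for LPS against albumin, as did quantile normalization (4). With the replicate block the interaction had 1 of the genes followed called and knockout against wild type under LPS had 0 of all genes. Without the LPS-treated arrays lettered a these were 1 and 6. The block changed no call of the genes followed other than those given beside their results.

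Leaving out 1 array at a time gave 0 to 3 of the genes followed for the interaction, and over all genes 951 to 1778 for heme in the knockout, 135 to 323 for the interaction, 1 to 3 for the genotypes under LPS and 798 to 1560 for them under heme and LPS.

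Signs changed in differences that were not called. For LPS against albumin Abca1 was 0.10 after quantile normalization, 0.26 with array weights and 0.41 without the arrays lettered a (single arrays left out, -0.66 to 0.41), Abcg1 was 0.14 after quantile normalization, Mylip was -0.64 with 1 probe per gene, and Apoc1 ranged from -0.23 to 0.44 without single arrays. For heme in wild type Lpcat3 was 0.048 with weights and 0.034 without the arrays lettered a (single arrays, -0.47 to 0.17), and against albumin Lipg, listed at 0 under heme, ranged from -0.099 to 0.74. For heme in the knockout Nr1h3 was 0.17 without the arrays lettered a (single arrays, -0.21 to 0.12), Apoc1 was -0.011 after quantile normalization (-0.14 to 0.40), and Lpcat3 was 0.0049 with the replicate block, 0.057 with weights and 0.084 without the arrays lettered a (-0.20 to 0.15). In the interaction Apoe was -0.026 with weights (-0.094 to 0.65), and without single arrays Abca1 ranged from -0.29 to 0.78 and Lpcat3 from -0.22 to 0.43. For knockout against wild type under LPS Apoc1 was -0.033 with the block, -0.0054 with weights and -0.24 without the arrays lettered a (-0.27 to 0.40), Srebf1 was -0.0013 after quantile normalization (-0.011 to 0.21), Nr1h3 ranged from -0.044 to 0.19 and Lpcat3 from -0.20 to 0.039. Under heme and LPS Lpcat3 was -0.12 with weights and -0.091 without the arrays lettered a (-0.28 to 0.37).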
